A study of Mus musculus with 22 samples.

Results

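Oxidative phosphorylation genes were followed across 22 arrays of sorted mouse microglia. They were taken by gene symbol alone, as every gene with a probe set of its own whose symbol belongs to the Nduf, Sdh, Uqcr, Cyc1, Cycs, Cox4 to Cox8 or Atp5 families. This gave 91 of the 19937 genes with such a probe set. They were 34 subunits and 7 assembly factors of complex I, 4 subunits of complex II, 9 of complex III, cytochrome c, 19 subunits or isoforms of complex IV and 17 of complex V. Of these, 87 passed the filter on low values, by which a gene had to lie above the array's median on at least 2 arrays. The 4 genes below it were Cox7b2, Cox8b, Cox8c and Ndufa4l2, isoforms used mainly in testis or muscle or induced by hypoxia, with no value above a log2 intensity of 5.33 on any array.

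The arrays, Affymetrix MoGene 1.0 ST, were of Trem2-/- knockout (KO) and wild-type (WT) mice on 4 diets. Trem2 is a lipid receptor of microglia. Microglia were sorted from perfused, dissociated brains by a gate for CD11b, CD45 and F4/80 together, one that microglia share with other brain macrophages. The study asked how cuprizone, the antioxidant mixture Covi-Ox and the loss of Trem2 act on microglial expression. The strain, age and sex of the mice, and whether arrays of a group came from separate animals, are not stated in the labels used here. The p-values below therefore speak only to how far these arrays spread, which may be technical.

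KO cuprizone mice (3 arrays) received 0.2% cuprizone, a copper-binding toxin under which oligodendrocytes die and myelin is lost, for 4 weeks, against KO control mice on neither agent (2 arrays). WT mice given both agents (WT both, 3 arrays) received 0.2% cuprizone with 0.1% Covi-Ox T70, a blend of mixed tocopherols, in feed with extra alpha tocopherol, for 4 weeks after 2 weeks on that feed without cuprizone. WT Covi-Ox mice (3 arrays) received the tocopherol feed without cuprizone for 4 weeks. WT cuprizone mice (3 arrays) received 0.2% cuprizone for 4 weeks and WT control mice (2 arrays) neither agent. For the other 6 KO arrays, title and treatment field disagree. In KO set A (3 arrays) the titles name cuprizone with Covi-Ox and the treatment field Covi-Ox alone, and in KO set B (3 arrays) the reverse holds. No direction of cuprizone on the Covi-Ox diet could therefore be given for the knockout.

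Oxidative phosphorylation makes ATP at the inner mitochondrial membrane. Complexes I and II pass electrons from NADH and succinate to ubiquinone, complex III passes them on to cytochrome c, and complex IV, a copper and haem enzyme, hands them to oxygen. Complexes I, III and IV pump protons, and complex V, the ATP synthase, lets them back through its membrane part (Fo) to drive the catalytic head (F1). In complexes I to IV core subunits carry the redox centres, and complexes I, III and IV also have accessory subunits that stabilise them. Some core subunits are encoded in mitochondrial DNA, and none of those was among the named probe sets, so all values here are of nuclear genes. Microglia use both respiration and glycolysis, and the balance is known to shift with activation.

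Promoters of 5 genes are printed, drawn from those with a listed promoter whose difference passed the test in a comparison below whichever array was left out. They are the complex I subunit Ndufb2, the complex III hinge protein Uqcrh, the complex IV subunit Cox8a, the ATP synthase subunit Atp5h and cytochrome c (Cycs). Each line gives the 250 bases before the RefSeq start site on GRCm38.p6, read in the direction of the gene. Capitals mark a match to the motif of NRF1 (GCGC, any base, TGCGC), ETS factors (CCGGAAG), ERR alpha (AAGGTCA) or cAMP response element binding protein (TGACGTCA), all known regulators of nuclear genes for mitochondria, on either strand.
Ndufb2, plus strand, chr6:39592315-39592564: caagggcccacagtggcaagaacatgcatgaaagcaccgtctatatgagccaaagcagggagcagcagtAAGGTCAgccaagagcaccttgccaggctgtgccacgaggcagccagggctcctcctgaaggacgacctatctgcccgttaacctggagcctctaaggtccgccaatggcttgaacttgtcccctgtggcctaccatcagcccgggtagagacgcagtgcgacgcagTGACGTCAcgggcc
Uqcrh, minus strand, chr4:116075071-116075320: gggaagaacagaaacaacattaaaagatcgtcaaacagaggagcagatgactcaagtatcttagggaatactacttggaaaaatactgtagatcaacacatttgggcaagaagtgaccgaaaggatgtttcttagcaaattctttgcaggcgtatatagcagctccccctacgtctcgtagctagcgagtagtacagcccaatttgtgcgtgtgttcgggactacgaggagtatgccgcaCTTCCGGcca
Cox8a, minus strand, chr19:7217617-7217866: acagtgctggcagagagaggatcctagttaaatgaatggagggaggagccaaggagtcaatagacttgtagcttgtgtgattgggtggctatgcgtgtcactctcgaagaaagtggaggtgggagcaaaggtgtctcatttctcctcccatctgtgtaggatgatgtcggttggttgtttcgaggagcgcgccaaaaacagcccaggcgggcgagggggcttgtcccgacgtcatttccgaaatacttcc
Atp5h, minus strand, chr11:115419920-115420169: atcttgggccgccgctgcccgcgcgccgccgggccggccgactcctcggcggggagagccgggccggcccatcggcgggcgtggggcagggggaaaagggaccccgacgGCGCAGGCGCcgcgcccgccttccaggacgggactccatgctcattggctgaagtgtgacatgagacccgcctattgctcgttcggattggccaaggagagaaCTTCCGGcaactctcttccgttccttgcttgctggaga
Cycs, minus strand, chr6:50566570-50566819: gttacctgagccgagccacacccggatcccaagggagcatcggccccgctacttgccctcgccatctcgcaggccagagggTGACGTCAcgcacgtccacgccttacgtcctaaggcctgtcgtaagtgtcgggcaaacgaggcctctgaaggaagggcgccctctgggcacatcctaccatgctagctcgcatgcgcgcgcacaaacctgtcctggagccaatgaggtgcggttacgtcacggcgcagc

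Ndufb2 held the ERR alpha letters 181 bases and the cAMP element 14 bases before the start, and Cycs the cAMP element at 169 bases. Atp5h held the NRF1 letters at 141 bases and the ETS letters at 38 bases, both on the other strand. Uqcrh held the ETS letters at 10 bases on the other strand, and the window of Cox8a none of the motifs searched. A promoter was listed for 74 of the 91 genes. The NRF1 letters stood in 17.6% of these, against 9.08% of the promoters of all genes that passed the filter and 4.23% of all 27025 promoters. The ETS letters stood in 17.6%, against 15.2% and 7.83%. The cAMP element stood in 6.76%, against 2.96% and 1.77%, and the ERR alpha letters in 5.41%, against 3.54% and 4.7%. The YY1 letters (AANATGGC) stood in 9.46%, against 5.28% and 4.49%, and the TATA letters (TATAAA) in 9.46%, against 8.18% and 14.3%. These shares are a description of the letters only.

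The arrays had median intensities of 36.1 to 38.6, and replicates correlated at 0.979 to 0.992 over all probe sets. Trem2 intensity was 84.5 to 113.9 on the KO arrays, against 1022 to 1724 on the WT arrays. The 12 microglia markers measured averaged a log2 intensity of 10.76 to 11.14 per array. Of other lists, 1 of 6 neuron, 4 of 5 oligodendrocyte, 3 of 5 astrocyte and 3 of 5 endothelial markers passed the filter, with medians of at most 7.44 (Slc1a3). All 7 border macrophage markers passed too, with medians of 6.48 to 9.52. So did 6 of 9 neutrophil markers, with medians of at most 7.75 (S100a8), and 3 of 5 monocyte markers, with medians of at most 6.23 (Ccr2). S100a8 and S100a9 reached 10.47 and 10.61 on their highest arrays. The 16 immediate-early genes, which respond to cell handling, averaged 9.21 on WT cuprizone array 3, 9.54 and 9.60 on KO cuprizone arrays 2 and 3, and at least 10.60 on the other 19. Because expression was measured in bulk, fewer cells of a type and less RNA per cell cannot be told apart. Intensities of different probe sets are not comparable, so levels are compared only within a gene.

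**Figure D1:**
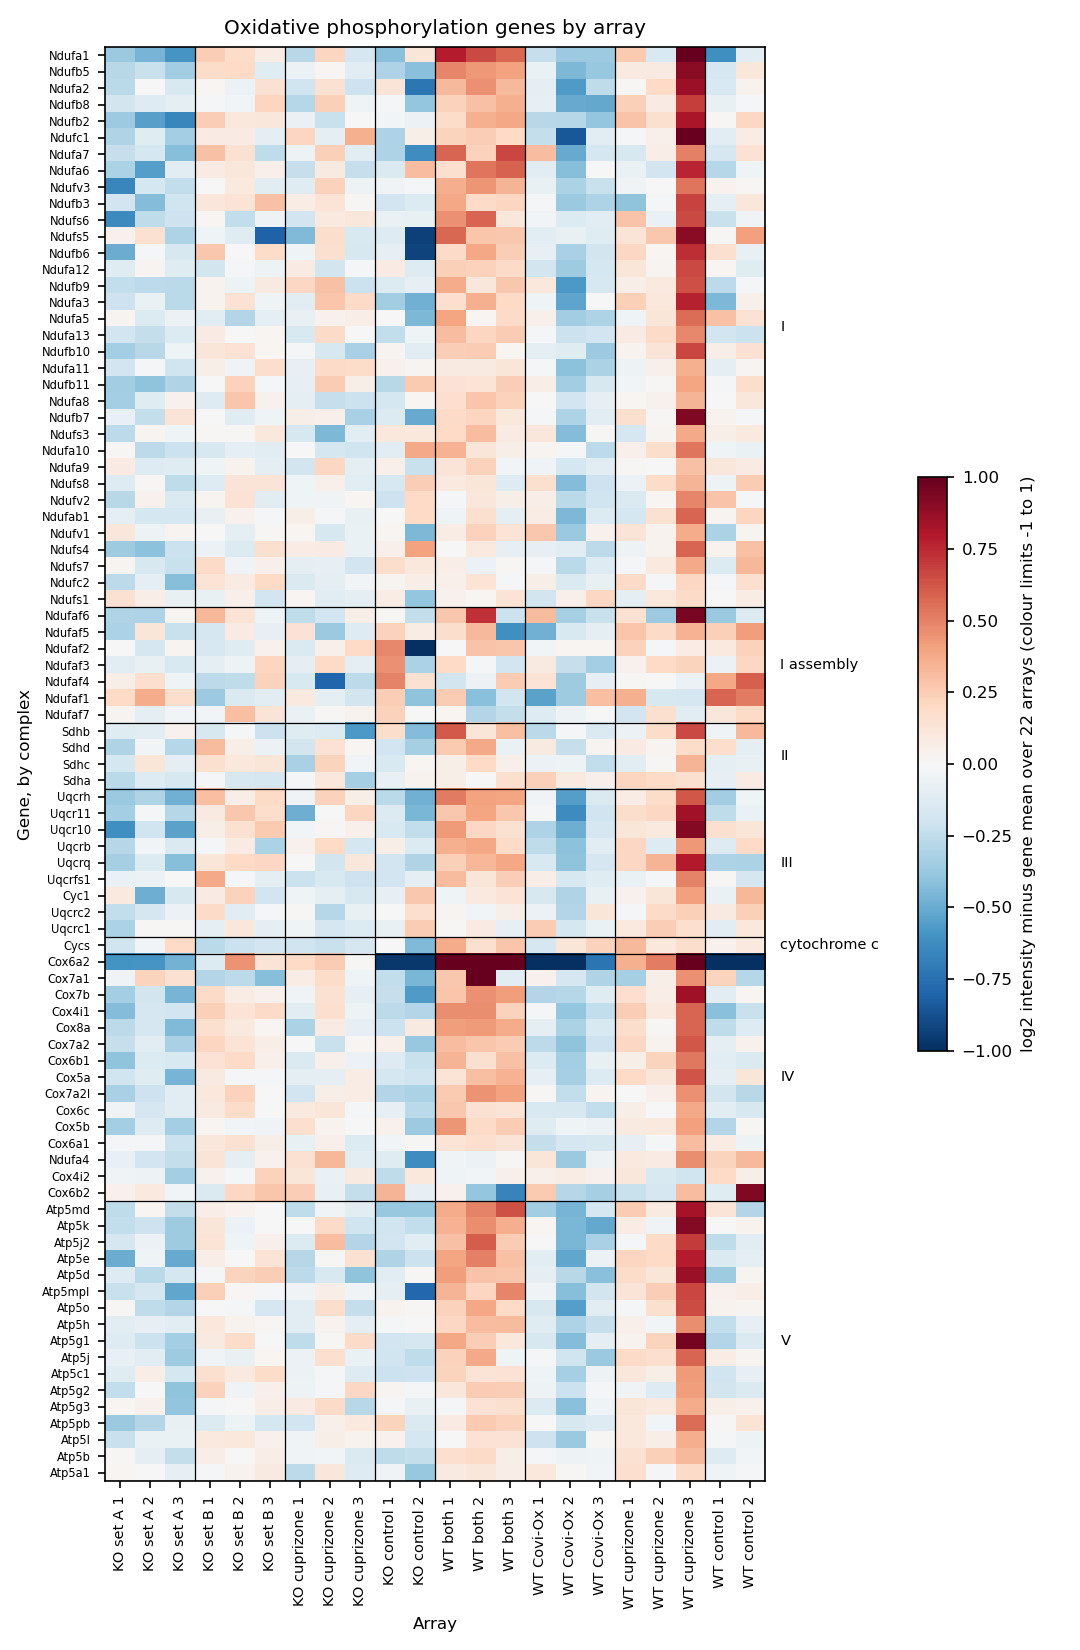
Log2 intensity of the 87 genes that passed the filter on each of the 22 arrays, minus the gene's mean over all arrays, with genes in rows by complex and arrays in columns by group. Colours are limited to -1 and 1. The WT both arrays and WT cuprizone array 3 are red down most rows. The KO set A arrays, WT Covi-Ox arrays 2 and 3 and KO control array 2 are mostly blue. WT Covi-Ox array 1 has a median near 0 (-0.04).

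Of the comparisons made, cuprizone in WT mice on the tocopherol feed gave the most calls. WT both mice were also on that feed for longer than WT Covi-Ox mice, counting the time before cuprizone. The groups therefore differ in feed duration as well as in cuprizone, and the part of each was not tested. In WT both, 30 of the 87 genes rose relative to WT Covi-Ox and none fell (limma, adjusted p under 0.05), against 4.65% of all 11830 genes called higher and 3.17% called lower. The difference was above 0 for 83 of the 87, against 43.1% of all genes, with a median of 0.37 on the log2 scale over the 87 and -0.03 over all. All WT both arrays lay above all WT Covi-Ox arrays for 58 of the 87, which was so for 13.1% of all genes. By complex, 8 of 34 subunits of complex I rose, 0 of 4 of complex II, 4 of 9 of complex III, 10 of 15 of complex IV and 8 of 17 of complex V. Neither cytochrome c nor any of the 7 complex I assembly factors was called.

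WT Covi-Ox array 2 was low in these genes, and it bears on this count. Its median over the 87 genes, relative to each gene's mean, was -0.32, against -0.04 and -0.14 on the other WT Covi-Ox arrays. Without it 9 genes were called and the median difference was 0.34. There were 13 calls without WT both array 2, 18 without WT both array 1 and 19 without WT both array 3 or WT Covi-Ox array 3, against 28 without WT Covi-Ox array 1. The calls that held in all 6 of these fits were Atp5h, Atp5md, Cox4i1, Cox6a2, Cox8a, Ndufa1, Ndufb2, Ndufb5 and Uqcrh.

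Complex IV had the largest single difference. Cox6a2, the heart and muscle isoform of subunit 6a, had log2 intensities of 9.28, 9.90 and 9.08 in WT both, against 6.83, 6.95 and 7.29 in WT Covi-Ox. No array of WT both came near the highest of WT Covi-Ox, and the difference was 2.40 ± 0.38 (SE), a 5.27-fold rise (adjusted p = 0.000432). Its ubiquitous partner Cox6a1 had 11.71, 11.74 and 11.70 in WT both, against 11.33, 11.40 and 11.41 in WT Covi-Ox. It rose by 0.33 ± 0.10 (adjusted p = 0.046), a call that was lost whichever of the 6 arrays was left out, as were those of Cox6c and Ndufa12. Cox4i1, the ubiquitous subunit 4 that binds nucleotides, had 10.26, 10.26 and 10.02 in WT both, against 9.77, 9.41 and 9.55 in WT Covi-Ox. The groups did not overlap, and it rose by 0.60 ± 0.13 (adjusted p = 0.00528). Cox4i2, its hypoxia and lung isoform, differed by -0.06 ± 0.12 and was not called.

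Other common subunits of complex IV rose as well. Cox8a had 9.94, 9.95 and 9.90 in WT both, against 9.42, 9.21 and 9.38 in WT Covi-Ox, a rise of 0.60 ± 0.13 (adjusted p = 0.00782). Cox7a2, Cox7b, Cox6b1, Cox6c, Cox5a and Cox7a2l, which is known to join complexes into supercomplexes, rose by 0.37 to 0.62. The testis isoform Cox6b2 differed by -0.22 ± 0.24 and the muscle isoform Cox7a1 by 0.62 ± 0.25, and neither was called. Ndufa4, named for complex I but a subunit of complex IV, differed by 0.07 ± 0.15.

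In complex I, Ndufa1, an accessory subunit of the membrane arm, had 9.93, 9.81 and 9.72 in WT both, against 8.92, 8.78 and 8.78 in WT Covi-Ox. The groups stood clear of each other, and it rose by 0.99 ± 0.21, or 1.99-fold (adjusted p = 0.00549). Ndufb5 had 8.29, 8.24 and 8.21 in WT both, against 7.74, 7.36 and 7.43 in WT Covi-Ox, and rose by 0.74 ± 0.17 (adjusted p = 0.00749). Ndufb2, whose promoter is printed above, had 7.72, 7.90 and 7.93 in WT both, against 7.26, 7.25 and 7.15 in WT Covi-Ox. It rose by 0.63 ± 0.13 (adjusted p = 0.00549), and like Ndufb5 its groups did not overlap. Ndufb8, Ndufv3, Ndufa13, Ndufa12 and Ndufa2, accessory subunits too, rose by 0.40 to 0.67. Of the 6 core subunits measured, which carry its flavin or iron-sulphur centres or line the quinone site, none was called. Ndufs3 had the largest difference of them, 0.30 ± 0.14, and Ndufs1 the smallest, 0.04 ± 0.12.

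In complex III the called genes were small accessory subunits. Uqcrh, the hinge protein that helps cytochrome c dock, had 11.13, 11.02 and 11.01 in WT both, against 10.58, 10.07 and 10.47 in WT Covi-Ox. It rose by 0.68 ± 0.15 (adjusted p = 0.00548). Uqcrq, which contacts cytochrome b, had 8.92, 9.02 and 9.07 in WT both, against 8.53, 8.28 and 8.51 in WT Covi-Ox, and rose by 0.56 ± 0.13 (adjusted p = 0.00909). For neither gene did the groups overlap. Uqcrb and Uqcr10 rose by 0.57 and 0.58. The large structural subunits Uqcrc1 and Uqcrc2 differed by 0.00 ± 0.12 and 0.09 ± 0.12, and cytochrome c1 (Cyc1) by 0.24 ± 0.15. In complex II, the iron-sulphur subunit Sdhb differed by 0.49 ± 0.18 (adjusted p = 0.120) and the flavoprotein Sdha by -0.05 ± 0.11.

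In complex V, 5 of 11 genes of Fo and its stalk and 3 of 6 genes of F1, with Atp5o counted there, rose. Atp5md, a small Fo subunit, had 9.66, 9.78 and 9.92 in WT both, against 8.94, 8.82 and 9.12 in WT Covi-Ox. The groups did not overlap, and it rose by 0.83 ± 0.15, or 1.78-fold (adjusted p = 0.0017). Atp5h, subunit d of the stalk, had 10.13, 10.24 and 10.25 in WT both, against 9.81, 9.62 and 9.70 in WT Covi-Ox, and rose by 0.50 ± 0.11 (adjusted p = 0.0064). Atp5k and Atp5j2, subunits e and f, and Atp5mpl rose by 0.56 to 0.71. Of F1, the delta and epsilon subunits Atp5d and Atp5e rose by 0.59 and 0.62, and Atp5o, the protein of the outer stalk that confers oligomycin sensitivity, by 0.55. The alpha and beta subunits Atp5a1 and Atp5b, which hold the catalytic sites, differed by 0.06 ± 0.10 and 0.17 ± 0.09 and were not called. The 3 genes for the same c ring protein, Atp5g1, Atp5g2 and Atp5g3, differed by 0.47, 0.30 and 0.29 and were not called.

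The calls were also counted by role. Of the 46 accessory subunits of complexes I, III and IV 21 were called higher, against 4.65% of all genes, with a median difference of 0.46. Of the 12 core subunits of complexes I, II and III 0 were called higher, with a median of 0.21, and the 12 ran between -0.05 and 0.49. A count of 0 of 12 is near the 4.65% of all genes, so it sets the core subunits apart from the accessory ones only. At an unadjusted p under 0.05, Sdhb and Uqcrfs1, the iron-sulphur protein of complex III, were the core subunits that were higher. The difference between these classes was not tested.

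**Figure D2:**
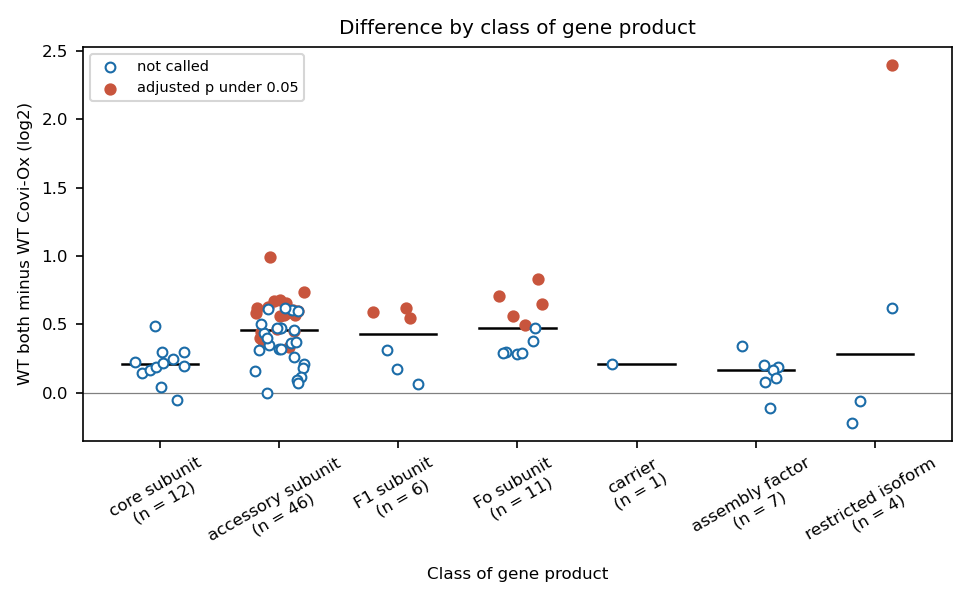
Log2 difference, WT both minus WT Covi-Ox, of each of the 87 genes by class of gene product. Filled points are called at an adjusted p under 0.05, open points are not, and bars are class medians. No core subunit and no assembly factor is filled, and the restricted isoform at 2.40 is Cox6a2.

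Cuprizone in WT mice without tocopherols, on arrays not shared with the comparison above, gave fewer calls. In WT cuprizone, 3 of 87 genes rose relative to WT control and none fell, against 1.8% of all genes called higher and 0.702% called lower. They were Uqcrq, Cox6a2 and Cox4i1, and at 3.45% of the set their count is not far above the 1.8%. The difference was above 0 for 75 of the 87 genes, against 47% of all genes, with a median of 0.23 over the 87 and -0.02 over all. At an unadjusted p under 0.05, 30 genes were higher and 2 lower, against 8.49% and 8.25% of all genes.

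Uqcrq had 8.89, 9.02 and 9.47 in WT cuprizone, against 8.38 and 8.37 in WT control. The groups did not overlap, and it rose by 0.76 ± 0.14, or 1.69-fold (adjusted p = 0.00549). Cox6a2 had 8.37, 8.53 and 10.73 in WT cuprizone, against 7.01 and 6.90 in WT control. It rose by 2.25 ± 0.43, or 4.76-fold (adjusted p = 0.006), with array 3 far above the other WT cuprizone arrays. Cox4i1 had 10.04, 9.89 and 10.38 in WT cuprizone, against 9.38 and 9.57 in WT control, and rose by 0.63 ± 0.14 (adjusted p = 0.0224). Ndufa1 had 9.41, 8.99 and 10.15 in WT cuprizone, against 8.53 and 9.03 in WT control, so that its groups overlapped, and it was not called (0.74 ± 0.24, adjusted p = 0.110).

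By complex, 1 of 9 genes of complex III and 2 of 15 of complex IV were called, and 0 of 34 of complex I, 0 of 4 of complex II and 0 of 17 of complex V. The median difference was 0.32 in complex IV, 0.30 in complex V, 0.21 in complex III, 0.20 in complex I and 0.15 in complex II. It was -0.07 for the 7 complex I assembly factors, of which Ndufaf1 (-0.54 ± 0.23) and Ndufaf4 (-0.51 ± 0.19) were lowest, without a call.

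WT cuprizone array 3 carried much of this difference. The median over the 87 genes relative to each gene's mean was 0.53 on array 3, against 0.08 and 0.08 on arrays 1 and 2. It is also the array lowest in immediate-early genes. KO cuprizone arrays 2 and 3, low in them too, had medians of 0.05 and -0.07, and the part of cell handling in these values was not tested. Without WT cuprizone array 3 the median difference was 0.07 and 2 genes were called, Cox6a2 and Uqcrq. Without either WT control array, which leaves a single control assumed to vary like the other groups, 0 were called. Without WT cuprizone array 1 or array 2, 6 were called.

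**Figure D3:**
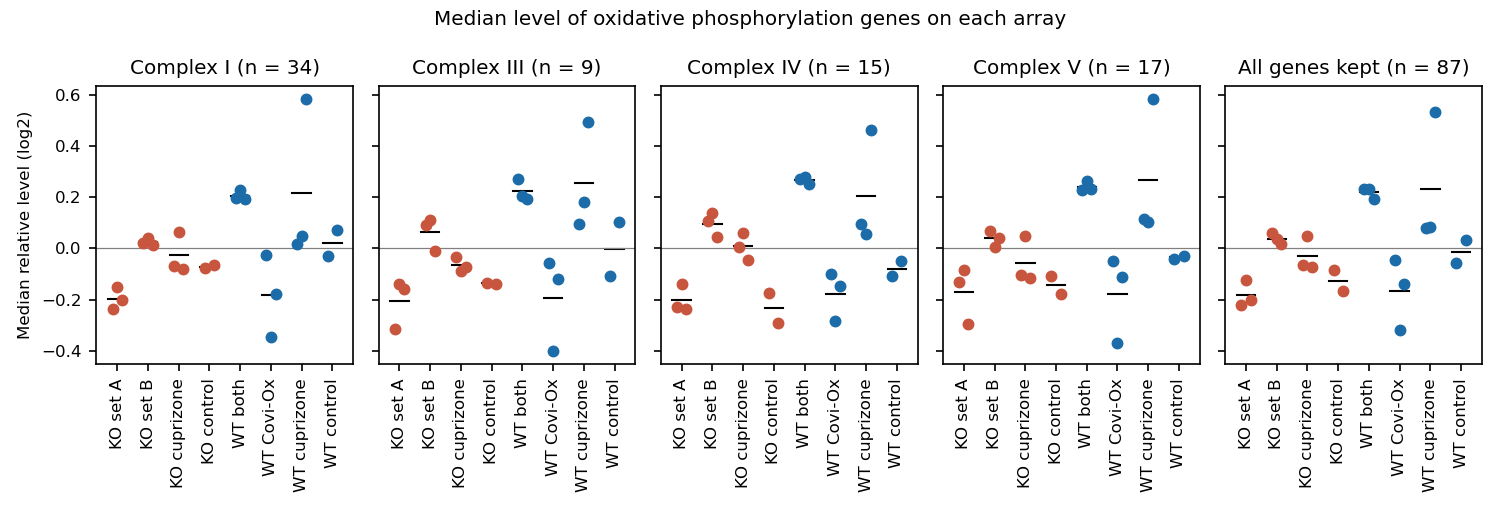
Median over genes of the log2 level relative to each gene's mean, for complexes I, III, IV and V and for all 87 genes. Each point is an array and each bar a group mean, with KO in red and WT in blue. WT both lies at 0.19 to 0.23 in the panel of all genes, and WT cuprizone array 3 stands at 0.53.

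Set side by side, the 2 WT cuprizone comparisons share no array. Of the 87 genes, 74 (85.1%) were above 0 in both, against 27.5% of all genes, and 3 were below 0 in both. All 3 genes called without tocopherols were among the 30 called with them, which is 100% of the first list and 10% of the second. Over all genes 175 were called higher in both, 82.2% of the 213 and 31.8% of the 550 called. All 30 were above 0 without tocopherols, with differences of 0.06 to 2.25 and a median of 0.39. This is near the share over all genes, where 524 of the 550 were above 0 with a median of 0.47. Whether the cuprizone difference was another on the tocopherol feed, with the longer feeding of WT both mice included, was tested directly. In this test 0 of the 87 genes were called, against 0.0254% of all genes. The difference of the 2 differences was nonetheless above 0 for 73 of the 87, against 48.1% of all genes. Its median over the 87 was 0.0853 to 0.303 when any 1 array was left out. This shift of the set as a whole was not tested. With no adjustment, 1 gene was higher and none lower at a p under 0.05, against 2.82% and 3.81% of all genes. For Cox6a2 the difference of differences was 0.15 ± 0.58, and for Uqcrq -0.20 ± 0.19.

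**Figure D4:**
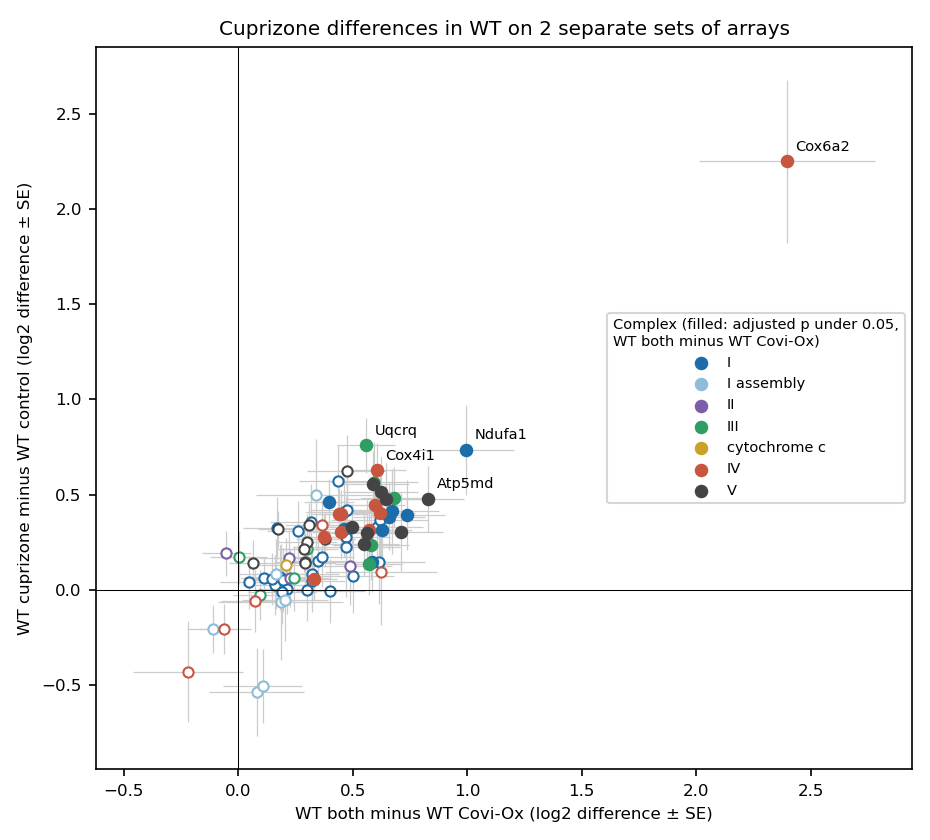
Log2 difference ± SE of each of the 87 genes in WT both minus WT Covi-Ox (horizontal) and in WT cuprizone minus WT control (vertical), coloured by complex. Filled points are called in the first. Of the 87 points 74 lie above 0 on both axes, with Cox6a2 above 2 on either axis.

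The tocopherol feed was also compared with feed without it. In WT Covi-Ox relative to WT control 0 of 87 were called, against 0.0338% of all genes, with a median difference of -0.17. With no adjustment, 7 were lower and none higher at a p under 0.05, against 4.07% and 3.22% of all genes. They included the assembly factor Ndufaf1 (-0.75 ± 0.23) and Ndufb2 (-0.42 ± 0.15). In WT both relative to WT cuprizone 0 were called, against 0.152% of all genes, with a median of -0.01. With no adjustment, 0 were higher and 0 lower at a p under 0.05, against 3.34% and 4.75% of all genes. Without WT cuprizone array 3 that median was 0.15 and 1 gene, Cox6a2, was called. Cox6a2 differed by 0.21 ± 0.38 there with all arrays, and Cox4i1 by 0.08 ± 0.13.

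In the knockout, cuprizone gave no call. Of the 87 genes 0 were called in KO cuprizone relative to KO control, against 0.0423% of all genes, so that few genes of any kind passed. At an unadjusted p under 0.05, 10 were higher and 2 lower, against 6.86% and 6.59% of all genes, and the median difference was 0.09. Cox6a2 had 8.22, 8.27 and 8.03 in KO cuprizone, against 7.06 and 7.05 in KO control, and the groups did not overlap. Its difference was 1.12 ± 0.43 (adjusted p = 0.273). Ndufaf4, a factor of complex I assembly, had 6.57, 5.93 and 6.46 in KO cuprizone, against 7.22 and 6.87 in KO control, a difference of -0.73 ± 0.19 (adjusted p = 0.135). Ndufa3, an accessory subunit of complex I, and Ndufa4 differed by 0.54 ± 0.19 and 0.50 ± 0.17, also without a call. By complex the median difference was 0.23 in complex IV, 0.12 in complex V, 0.07 in complex I, 0.06 in complex III, -0.02 in complex II and -0.07 for the 7 complex I assembly factors. Cox4i1 and Uqcrq, called in WT cuprizone relative to WT control, differed by 0.28 ± 0.14 (adjusted p = 0.419) and 0.22 ± 0.14 (adjusted p = 0.542) here. Without KO control array 1, which leaves a single control, 4 of the set and 765 of all genes were called, and without KO cuprizone array 1 the counts were 1 and 205.

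The difference between genotypes in the cuprizone difference was tested as an interaction. It called 0 of the 87 genes, against 0.228% of all genes. At an unadjusted p under 0.05, 1 was higher in the knockout and 5 lower, against 4.99% and 5.09% of all genes, and the median was -0.17, against 0.01 over all genes. Atp5d had the lowest p, with -0.78 ± 0.25 (adjusted p = 0.295), and for Cox6a2 the value was -1.13 ± 0.61 (adjusted p = 0.554). Without WT cuprizone array 3 the median was -0.02, and without KO control array 1 there was 1 call.

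Between the genotypes under cuprizone, the difference was above 0 for 4 of the 87 genes, against 47.4% of all genes. In KO cuprizone, 4 of 87 genes fell relative to WT cuprizone and none rose, against 2.98% of all genes called lower and 0.82% called higher. At 4.6% of the set, the count of 4 is not far above the 2.98%. The median was -0.275, against -0.01 over all genes, and 41 genes were lower at an unadjusted p under 0.05, against 11.9% of all genes. Atp5d, the F1 delta subunit, had 8.63, 8.75 and 8.50 in KO cuprizone, against 9.08, 9.02 and 9.76 in WT cuprizone. It was lower on every KO array and fell by 0.66 ± 0.16 on the log2 scale (adjusted p = 0.0204). Ndufb2 had 7.47, 7.32 and 7.54 in KO cuprizone, against 7.82, 7.70 and 8.36 in WT cuprizone, and fell by 0.51 ± 0.13 (adjusted p = 0.0358). Uqcrq had 8.68, 8.50 and 8.80 in KO cuprizone, against 8.89, 9.02 and 9.47 in WT cuprizone, and fell by 0.47 ± 0.13 (adjusted p = 0.0449). Atp5b, the catalytic beta subunit, had 9.63, 9.63 and 9.52 in KO cuprizone, against 9.82, 9.90 and 9.99 in WT cuprizone, and fell by 0.31 ± 0.09 (adjusted p = 0.0492). In none of the 4 did the groups overlap, which adds little for genes picked by their p on the same arrays. All KO cuprizone arrays lay below all WT cuprizone arrays for 30 of the 87 genes, against 11.6% of all genes. Cox6a2 was not called (-1.04 ± 0.38, adjusted p = 0.143). Cycs differed by -0.39 ± 0.13 (adjusted p = 0.0881), and the median difference was -0.31 in complex V, -0.29 in complex III, -0.25 in complex I, -0.20 in complex II and -0.19 in complex IV.

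These 4 calls depended on which arrays were included. Without WT cuprizone array 3, or without KO cuprizone array 3, 0 were called, and without KO cuprizone array 1 or array 2, 1. Without WT cuprizone array 1 there were 7. The median without WT cuprizone array 3 was -0.13. In the mice on neither agent 0 of 87 genes were called in KO control relative to WT control, against 0.0676% of all genes. There 6 were lower at an unadjusted p under 0.05 and none higher, against 7.02% and 3.5% of all genes, with a median of -0.08. Without KO control array 1, 5 were called, as were 701 of all genes.

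Averaged over the 4 diets, which uses all 22 arrays and does not depend on which KO set held cuprizone, 7 of 87 genes were called lower in the knockout and none higher. Of all genes 4.69% were called lower and 1.68% higher, and the median difference was -0.14 over the 87 genes and -0.01 over all. The 7 were Cycs, Ndufs5, Ndufb2, Sdha, Atp5b, Atp5mpl and Atp5md, 8.05% of the set, which is not far above the 4.69%. No gene of the set had every KO array below every WT array, which 11 genes in all did.

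Cycs, the soluble electron carrier between complexes III and IV, had the lowest p. In the knockout it read 8.05, 8.22 and 8.45 in set A, 7.98, 8.04 and 8.06 in set B, 8.05, 8.03 and 8.08 in KO cuprizone, and 8.26 and 7.81 in KO control. In the wild type it read 8.63, 8.41 and 8.53 in WT both, 8.08, 8.38 and 8.48 in WT Covi-Ox, 8.58, 8.35 and 8.43 in WT cuprizone, and 8.29 and 8.35 in WT control. KO set A array 3 and WT Covi-Ox array 1 are where the genotypes overlap. The difference was -0.31 ± 0.07, or 1.24-fold lower (adjusted p = 0.00642), and it passed in all 22 fits that left out an array. As plain means over arrays, its 3 probe sets differed by -0.315, -0.222 and -0.538 between KO and WT. In WT both relative to WT Covi-Ox they gave 0.21, 0.25 and -0.34, so that the third had the other sign.

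The other 6 calls were smaller or less steady. Ndufs5, an accessory subunit of complex I, had a difference of -0.49 ± 0.12 (adjusted p = 0.0221). It ran from 8.32 to 9.43 on the KO arrays with a median of 9.12, against 9.13 to 10.16 with a median of 9.52 on the WT arrays, so that the ranges overlapped. That call was lost without KO control array 2 or WT control array 2. A probe set that reads Ndufs5 together with Ndufs5-ps was not used. Sdha, the flavoprotein of complex II, ran from 8.09 to 8.53 on the KO arrays with a median of 8.30, against 8.35 to 8.66 with a median of 8.52 on the WT arrays. Its difference was -0.20 ± 0.06 (adjusted p = 0.0387), and it was not called in either WT cuprizone comparison. Ndufb2, Atp5b, Atp5mpl and Atp5md had differences of -0.16 to -0.30. The number of calls was 14 without KO control array 1 and 1 without KO control array 2. It was 2 without WT control array 2, WT Covi-Ox array 1, KO set A array 3 or KO set B array 2 or 3, and 3 without KO cuprizone array 3 or WT both array 3. It was 4 without KO cuprizone array 2, KO set A array 1, WT both array 1 or 2 or WT Covi-Ox array 3, and 5 to 9 without any other array.

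**Figure D5:**
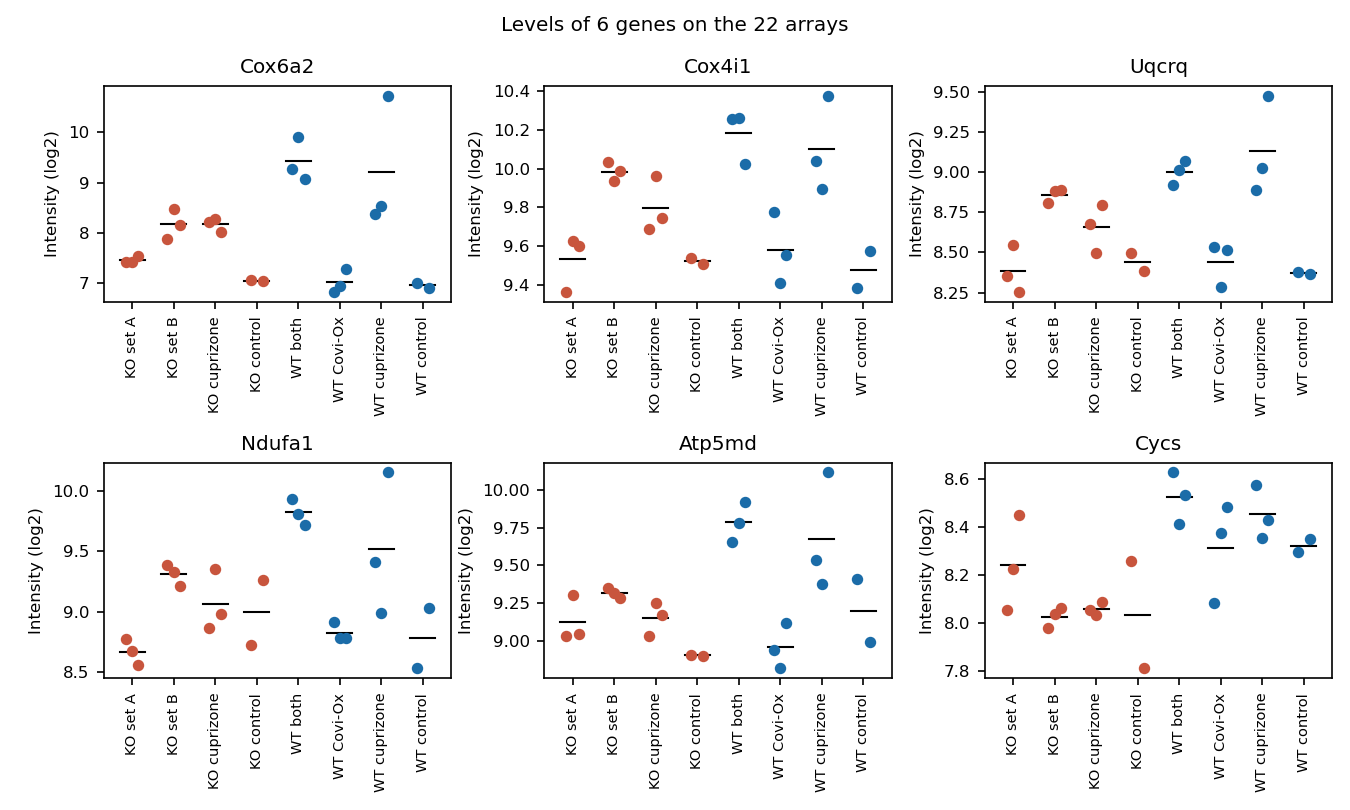
Log2 intensity of 6 genes on each array, with KO groups in red and WT groups in blue and a bar at each group mean. Each panel has its own axis, which does not start at 0. Cox6a2 is at most 8.47 on the KO arrays and between 9.08 and 9.90 on the WT both arrays, and the KO and WT points of Cycs overlap.

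The 2 KO sets with contradictory labels were compared with each other. In KO set A relative to KO set B 0 of 87 were called, against 0.00845% of all genes, while 27 were lower and 1 higher at an unadjusted p under 0.05, against 4.51% and 4.29% of all genes. The median was -0.20. Ndufb2 had 7.17, 6.99 and 6.89 in KO set A, against 7.78, 7.64 and 7.65 in KO set B, and the groups did not overlap (-0.67 ± 0.13, adjusted p = 0.0741). Uqcrh differed by -0.58 ± 0.15 (adjusted p = 0.169). Relative to KO control, set B had 20 genes higher and 1 lower at an unadjusted p under 0.05, against 8.55% and 5.69% of all genes, and set A had 0 higher and 4 lower, against 7.29% and 4.24%. Neither gave a call among the 87, against 0.744% of all genes for set B and 0.0338% for set A. Set A and set B share the KO control arrays in these comparisons. If the titles hold, set A is the group given cuprizone with tocopherols, and if the treatment field holds, set B is.

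Over the 8 groups, the highest group mean of a gene was in WT both for 37 genes and in WT cuprizone for another 37. It was in WT control for 10, in KO set B for 2 and in KO control for 1. The lowest mean was in KO set A for 26, WT Covi-Ox for 23 and KO control for 22. Array medians of the 87 genes were -0.22 to -0.12 in KO set A, 0.02 to 0.06 in KO set B, -0.07 to 0.05 in KO cuprizone and -0.17 to -0.08 in KO control. They were 0.19 to 0.23 in WT both, -0.32 to -0.04 in WT Covi-Ox, 0.08 to 0.53 in WT cuprizone and -0.06 to 0.03 in WT control. Many of these ranges overlapped. That of WT both lay within that of WT cuprizone, and above those of the other 6 groups. That of WT Covi-Ox overlapped those of WT control, KO cuprizone, KO control and KO set A. KO cuprizone overlapped KO set B and WT control as well, WT control overlapped KO set B, and KO control overlapped KO set A.

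Other genes of energy metabolism were read beside them from lists. Of 14 glycolysis genes 9 rose in WT both relative to WT Covi-Ox, among them Pgk1, which makes ATP in glycolysis (1.37 ± 0.18), and the glucose transporter Slc2a1 (0.89 ± 0.13). The list median was 0.74, and 4.65% of all genes were called higher. Of the same 14, 6 rose in WT cuprizone relative to WT control, against 1.8% of all genes. In KO cuprizone relative to WT cuprizone 7 fell, against 2.98% of all genes, and 9 were called lower in the knockout over the 4 diets, against 4.69%. Of 64 cytosolic ribosome genes 16 rose in WT both and of 77 mitochondrial ribosome genes 4, and none of either list fell. The mitochondrial ribosome count is near the 4.65% of all genes called higher. Of 37 respiratory chain assembly factors Cox17, a copper chaperone for complex IV (0.65 ± 0.13), and Coa5 rose, also near that share, and none fell. Atpif1, the inhibitor of ATP synthase, rose by 0.48 ± 0.13. No gene of the TCA cycle list of 21 rose, and Idh2, mitochondrial isocitrate dehydrogenase, fell by 0.60 ± 0.11. None of 12 genes of coenzyme Q synthesis was called.

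Of 18 regulators of mitochondrial genes, Gabpb1, Sirt1 and Mterf3 fell in WT cuprizone relative to WT control, by 0.77, 0.85 and 0.60. Of all genes 0.702% were called lower there. None of those 3 was called in WT both relative to WT Covi-Ox, where the mitochondrial helicase Twnk rose (0.60 ± 0.17). That is 1 of the 18, near the 4.65% of all genes called higher. In the knockout over the 4 diets the phosphate carrier Slc25a3 (-0.30 ± 0.06), the ADP/ATP carrier Slc25a4 (-0.26 ± 0.06), the enzyme subunit Suclg1 of the TCA cycle and Lrpprc, which stabilises mitochondrial messenger RNA, were called lower. So were 4 of 77 mitochondrial and 3 of 64 cytosolic ribosome genes, against 4.69% of all genes, and no gene of the 8 lists was called higher. The 2 carriers were of a list of 12, while Suclg1 was 1 of 21 genes and Lrpprc 1 of 37. The counts for Suclg1, Lrpprc and both ribosome lists are near or under the 4.69%.

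Cell type markers were read in the same comparisons. In WT both relative to WT Covi-Ox, 6 of 12 microglia markers were lower and none higher, against 3.17% and 4.65% of all genes, with array means of 10.76 on all WT both arrays and 11.06 on all WT Covi-Ox arrays. Of 7 border macrophage markers 3 were lower, with array means of 7.25 to 7.61 in WT both, against 8.05 to 8.32 in WT Covi-Ox. Of 6 neutrophil markers 1 was higher, with array means over all 9 of the list of 4.96 to 5.26 in WT both, against 4.19 to 4.47 in WT Covi-Ox. The endothelial list had 1 marker higher and 1 lower of 3 that passed the filter, with array means of 5.27 to 5.42 in WT both, against 4.88 to 5.17 in WT Covi-Ox. The oligodendrocyte list had 0 of 4 called, with array means of 5.56 to 5.61 in WT both, against 5.67 to 5.78 in WT Covi-Ox. The astrocyte list had 1 of 3 lower, with array means of 5.04 to 5.21 in WT both, against 5.15 to 5.31 in WT Covi-Ox. The monocyte list had 0 of 3 called, with array means of 4.62 to 4.98 in WT both, against 4.38 to 4.49 in WT Covi-Ox. The array means of the microglia, border macrophage, neutrophil, monocyte, endothelial and oligodendrocyte lists did not overlap between these groups, and those of the astrocyte list did. In WT cuprizone relative to WT control, 1 of 7 border macrophage markers was lower, against 0.702% of all genes. There 1 of 3 endothelial markers was higher, against 1.8%, and no microglia, neutrophil, monocyte, oligodendrocyte or astrocyte marker was called. In WT Covi-Ox relative to WT control 2 of 6 neutrophil markers were lower, with a median of -2.475, against 0.0169% of all genes called lower. In KO set B relative to KO control 2 of 6 were lower, with a median of -1.358, against 0.194%. None was called in KO set A relative to KO control, where the median was -1.441. In the knockout over the 4 diets 6 of 12 microglia markers were higher and 1 lower, against 1.68% and 4.69% of all genes. Their array means were 10.97 to 11.14 on the KO arrays, against 10.76 to 11.06 on the WT arrays. Lower in the knockout over the 4 diets were also 1 of 7 border macrophage and 1 of 3 endothelial markers, against the same 4.69%. In KO cuprizone relative to WT cuprizone, 3 of 12 microglia markers were higher, with a median of 0.23, against 0.82% of all genes. Their array means were 10.97 to 11.13 in KO cuprizone, against 10.84 to 10.94 in WT cuprizone. There 1 of 3 endothelial markers was lower, against 2.98% of all genes, and no marker of the other cell type lists was called. The part of these markers in the results above was not tested.

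For 18 of the 87 genes several probe sets were read. They mostly gave the same sign, with exceptions. Atp5g1, Cycs, Ndufab1 and Ndufs3 had probe sets of opposite sign in WT cuprizone relative to WT control, and Cycs and Ndufab1 in WT both relative to WT Covi-Ox. All probe sets of the called genes Atp5h, Atp5md, Cox6c, Cox7a2l, Cox7b and Uqcrb were above 0 in both comparisons. The 3 probe sets of Atp5md gave 0.83, 0.44 and 0.64 in WT both relative to WT Covi-Ox. Cox7c and Ndufb4 were read only by probe sets shared with another gene and are not among the 91.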

How the data were processed

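RNA of sorted microglia was hybridised to Affymetrix MoGene 1.0 ST arrays, 22 in all. The deposited value table holds 1 intensity per probe set and array on a linear scale, made by the authors with RMA per the submitters' processing notes. RMA, as usually run, corrects background, sets all arrays to 1 distribution and summarises probes, after which a shift of most genes at once cannot be seen. No source used here gives its version or settings. The table has 28098 probe sets, 2 missing cells and values of 1.62 to 11568.

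Values were turned to log2 and not normalised again. Genes were named through the platform annotation given with the data: 21640 probe sets list 1 gene, and 1321 that list several were not used. Of several probe sets of a gene the one with the highest mean was taken. Of 19937 genes, 11830 were kept, each exceeding the 50th percentile of the array in 2 arrays or more. limma 3.58.1 in R 4.3.3 fitted 8 group means to the 22 arrays, with p-values adjusted by the Benjamini-Hochberg method over all 11830 genes and calls at an adjusted p under 0.05. Differences are in log2, given with their standard error (SE). The number of arrays limits the precision. On simulated data with known answers, WT cuprizone against WT control recovered 46% of 1.5-fold and 90% of 2-fold changes, and KO against WT over 4 diets 90% and 100%, over 11830 genes.

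The members, the lists and the tests were chosen with earlier results of these data known. Genes named were each called member (the 25 with the lowest adjusted p where there were more, the rest by range), up to 3 per complex with the largest and smallest differences, isoform pairs, and up to 4 called genes of each other list. Groups follow the labels. In 6 KO arrays the title contradicts the other fields, so these enter as sets A and B without a diet. Alternatives were a fit on only the arrays compared, no filter, a filter at the 75th percentile, the mean of a gene's probe sets, quantile normalisation, median centring, array weights, the trend and robust options of limma, a replicate block, leaving out the 3 arrays low in immediate-early genes and leaving out each array. Replicate numbers did not pair the arrays: of 71 pairs of same-numbered arrays of different groups, 3 had a correlation of deviations over 0.1 (range -0.227 to 0.254).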

Additional observations from a re-analysis of the deposited data

How the results depend on the processing

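Of the alternatives other than leaving out an array in turn, 110 counts of called genes stayed within 1.5 times and 19 did not. Most of the 110 were of comparisons with 0 calls in the main fit. For KO cuprizone against WT cuprizone 6 counts moved and 4 did not, and for KO against WT over 4 diets 5 moved and 4 did not. For each of the 2 WT cuprizone comparisons 1 moved and 9 did not. Of the medians, 122 moved by less than the replicate spread of 0.113 while 7 moved by more. On only the arrays compared, WT cuprizone against WT control gave 0 calls, KO cuprizone against WT cuprizone 0 and KO set A against set B 2. Array weights gave 48 calls for WT both against WT Covi-Ox, 0 for KO cuprizone against WT cuprizone (median -0.16), 4 for KO against WT over 4 diets, 4 for KO set A against set B, and a median of -0.0499 for the genotype difference in the cuprizone effect. With no filter, KO cuprizone against WT cuprizone gave 1 and KO against WT over 4 diets 3. Quantile normalisation gave 1 and 2 for these comparisons, and median centring 7 and 14. A filter at the 75th percentile gave 1 call for KO set A against set B. Without the 3 arrays low in immediate-early genes, WT both against WT Covi-Ox gave 43 calls, KO cuprizone against WT cuprizone 0 (median -0.15), KO against WT over 4 diets 3, KO set B against KO control 3 (Cox6a2, Cox7b and Uqcrh), KO set A against set B 4, and WT both against WT cuprizone 1 (Cox6a2, median 0.15). The median was then 0.0687 for WT cuprizone against WT control, -0.045 for the genotype difference in the cuprizone effect and 0.30 for the tocopherol difference in it. The cause of these changes was not tested. The replicate block, whose numbers do not pair the arrays, gave 28 calls for WT both against WT Covi-Ox, 2 for WT cuprizone against WT control, 3 for KO cuprizone against WT cuprizone and 6 for KO against WT over 4 diets.

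Leaving out each array in turn gave 9 to 28 calls (median 0.34 to 0.46) for WT both against WT Covi-Ox, 0 to 6 (0.0687 to 0.32) for WT cuprizone against WT control, 0 to 4 (0.02 to 0.16) for KO cuprizone against KO control and 0 to 1 (-0.25 to -0.0238) for the genotype difference in the cuprizone effect. It gave 0 to 7 (-0.33 to -0.13) for KO cuprizone against WT cuprizone, 0 to 5 (-0.16 to -0.05) for KO control against WT control and 1 to 14 (-0.16 to -0.105) for KO against WT over 4 diets. It gave 0 to 0 (-0.22 to -0.11) for WT Covi-Ox against WT control, 0 to 1 (-0.10 to 0.15) for WT both against WT cuprizone and 0 to 0 (0.0853 to 0.30) for the tocopherol difference in the cuprizone effect. For the sets it gave 0 to 3 (-0.10 to -0.02) for set A against KO control, 0 to 4 (0.13 to 0.21) for set B against KO control and 0 to 0 (-0.25 to -0.18) for set A against set B. Without KO control array 1 the lone KO control array is assumed to vary like the other groups, and that omission gave the highest count in each comparison with KO control. With 2 control arrays a genotype, changes under 1.5-fold are often missed.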
